A study of Rosa hybrid cultivar with 12 samples.

Results

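The genes that drew the most sequencing counts in a rose bud are described here: which genes they were by identifier, how much of each library they held, and how their levels differed with auxin and with sucrose. They were chosen by level alone, as the genes whose mean over 12 libraries exceeded 700 CPM, the count scaled to one common library total after TMM scaling of library sizes. This gave 127 genes of the 42307 listed and of the 24267 tested, so 0.300% of the listed genes. The mean level and the share of counts therefore follow from the choice and are given as a description, with no test.

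Auxin made in the shoot tip holds back the growth of the buds below it, and sugar supplied to a bud promotes its outgrowth. Roses are used to study how the sugar and hormone signals meet. In plant tissues a small number of genes commonly accounts for a large part of the messenger RNA, often genes for translation, metabolism, stress proteins and cell structure. The identifiers of these files carry no gene names here, so no role is given to any gene below, and the labelled tissue could not be checked against marker genes.

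Messenger RNA was sequenced from wild-type buds of a hybrid rose; the labels call the tissue flower bud, whereas the series title speaks of budburst. The S10_Aux group received 10 mM sucrose with 1 µM NAA, a synthetic auxin. The S100_Aux group received 100 mM sucrose with 1 µM NAA. The S100_NoAux group received 100 mM sucrose and the S10_NoAux group 10 mM sucrose, both without auxin. Every library thus received sucrose. Each group held 3 libraries, numbered 1 to 3 and harvested on 20 June, 20 August and 20 October, and values below are listed in that order. The design text gives 2 biological replicates although 3 are numbered in the titles, which were followed, and nothing says how many plants a library holds. The p-values thus measure only the spread between these libraries. The planting date in the labels falls after the harvest date for 6 of the 12 libraries, so no plant age is given.

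Gene counts summed to between 7369267 (S10_Aux_1) and 16757019 (S10_Aux_2) per library. Replicates of a group differed by far more than counting noise, and none were copies of each other. S10_Aux_1 stood apart from the other libraries: its TMM factor was 0.745, against 0.976 to 1.10 elsewhere, and 251 genes exceeded 700 CPM in it, against 90 to 161 elsewhere. Values without this library are therefore given beside those with it for the counts of called genes and for most genes named in the auxin and sucrose averages, and the S10_Aux group then has 2 libraries.

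Together the 127 genes took 16.7% of all gene counts, and the 10 most counted took 4.25%. Among the 127, the first 34 held 50% of their counts. Mean levels ran down steeply, with 9224 CPM for the first gene, 2723 CPM for the tenth, a median of 1026 CPM and 713.1 CPM for the last. The choice of 700 CPM cut through a continuous slope: the last genes inside it were RC5G0472500 at 715.3, RC6G0107100 at 714.4 and RC2G0207600 at 713.1 CPM, and the first outside were RC1G0479400 at 698.2, RC5G0359400 at 697.8 and RC4G0318800 at 694.2 CPM. CPM takes no account of gene length, so this is an order of counts and not of transcript molecules. All 127 passed the filter on low counts, and the smallest count of any of them in any library was 565.

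The 127 genes held 25.3%, 14.2% and 16.0% of gene counts in S10_Aux and 16.7%, 15.5% and 15.6% in S100_Aux, against 16.8%, 16.6% and 17.9% in S100_NoAux and 17.6%, 16.9% and 16.6% in S10_NoAux. The 95% Wilson interval of each share reached at most 0.0314 percentage points to either side, which covers counting error only. S10_Aux held both the highest share, in S10_Aux_1, and the lowest, in S10_Aux_2. The group means were 18.5 ± 5.98% in S10_Aux, 16.0 ± 0.688% in S100_Aux, 17.1 ± 0.664% in S100_NoAux and 17.1 ± 0.532% in S10_NoAux (SD, n = 3 each). Without S10_Aux_1, the S10_Aux mean was 15.1%, the lowest of the 4 groups. In bulk tissue, fewer cells of a type and less RNA per cell cannot be told apart.

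**Figure D1:**
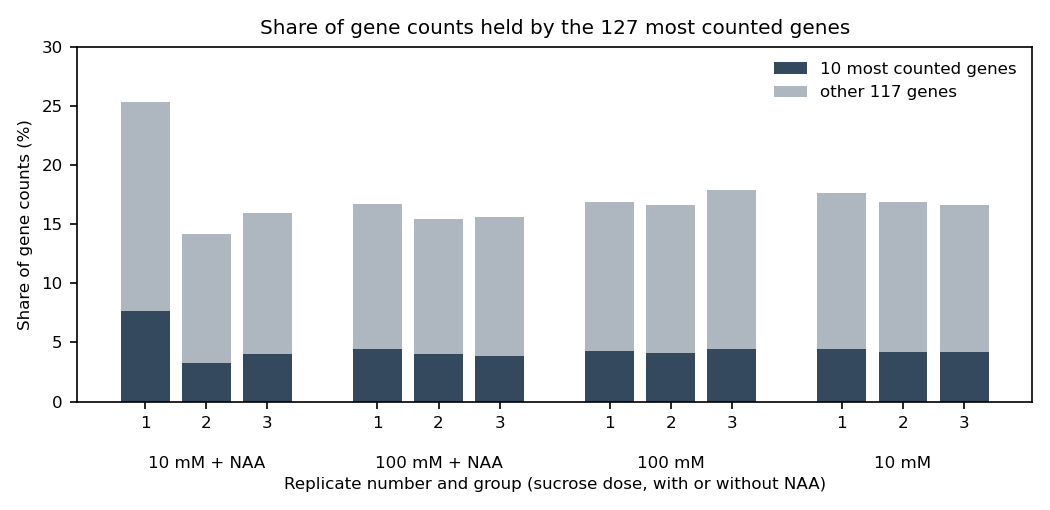
Share of gene counts, in percent, that the 127 genes held in each of the 12 libraries, grouped by sucrose dose and auxin, with the 10 most counted genes as the dark part of each bar. Replicate 1 of 10 mM + NAA stands at 25.3%, and the other 11 libraries lie between 14.2% and 17.9%.

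Most of the 127 had a group mean above 700 CPM in every treatment, where the S10_Aux mean includes S10_Aux_1. In S10_Aux_1, S10_Aux_2 and S10_Aux_3, 115, 61 and 96 of the 127 exceeded 700 CPM. The group mean exceeded 700 CPM in all 4 groups for 74 genes, in 3 groups for 20, in 2 for 27 and in 1 for 6. Only 34 genes were above 700 CPM in each of the 12 libraries. S10_Aux_1 was the highest library for 71 of the 127 genes and S10_Aux_2 the lowest for 73. For 37 of the 127 both the highest and the lowest library were of S10_Aux. Chosen on the 11 libraries without S10_Aux_1, the list would hold 117 genes. Of these, 114 were shared, which is 89.8% of the 127 and 97.4% of the 117. Among the 13 genes that would leave, RC6G0231900 moved furthest, with a mean of 1114 CPM over 12 libraries and 592 CPM over 11.

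The top of the list was led by RC3G0151500, with 29522, 9263 and 9714 CPM in S10_Aux and 9622, 8219 and 5609 CPM in S100_Aux, against 5341, 5162 and 6654 CPM in S100_NoAux and 6785, 7485 and 7311 CPM in S10_NoAux. Its S10_Aux_1 value was more than 3 times that of any other library, and the other 11 libraries spanned a 1.88-fold range. Its average auxin effect was 0.81 (SE 0.303, adjusted p 0.0700) on the log2 scale by edgeR's quasi-likelihood test with Benjamini-Hochberg adjustment, and 0.44 without S10_Aux_1 (adjusted p 0.0586), so it was not called in either case. It was called when S100_Aux_3, S10_Aux_2 or S10_Aux_3 was left out instead (adjusted p 0.0491, 0.0326 and 0.0333). With all 12 libraries it was called by DESeq2 (0.83, adjusted p 0.0155) and by edgeR's test without TMM scaling (0.74, adjusted p 0.0301).

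RC5G0521000 came next, with 14265, 4665 and 5663 CPM in S10_Aux and 6366, 6633 and 6795 CPM in S100_Aux, against 8794, 9087 and 8134 CPM in S100_NoAux and 8736, 7925 and 7478 CPM in S10_NoAux. All 5 auxin libraries other than S10_Aux_1 lay below all 6 libraries without auxin. With 12 libraries its average auxin effect was -0.18 (adjusted p 0.643), and without S10_Aux_1 it was -0.51 (adjusted p 0.0113). RC4G0213300, the third, showed the same order of libraries, with 6475, 2063 and 3074 CPM in S10_Aux and 3878, 3703 and 4044 CPM in S100_Aux, against 5749, 5329 and 4429.7 CPM in S100_NoAux and 5697, 5040.3 and 4506 CPM in S10_NoAux. The effect of auxin on it was -0.40 (adjusted p 0.261) with all libraries and -0.69 (adjusted p 0.00618) without S10_Aux_1. For both genes the call therefore turned on 1 library.

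RC6G0034900, the fourth, was the most uneven of the 10 within groups, with 16415, 1803 and 2536 CPM in S10_Aux and 3721, 2289 and 2270.3 CPM in S100_Aux, against 2644, 2626 and 8650.2 CPM in S100_NoAux and 3465, 2959 and 2387 CPM in S10_NoAux. It stood high in S10_Aux_1 and in S100_NoAux_3, and the remaining 10 libraries lay between 1803 and 3721 CPM. RC4G0282100, the ninth, had 11536, 2479.9 and 2480.4 CPM in S10_Aux and 2271, 1814 and 1614 CPM in S100_Aux, against 1824, 1603 and 2692 CPM in S100_NoAux and 2768, 2193 and 1878 CPM in S10_NoAux, so that S10_Aux_1 alone stood high. Neither gene was called for the average auxin effect, with log2 values of 0.24 and 0.58 (adjusted p 0.761 and 0.260). Without S10_Aux_1 the values were -0.58 and 0.02 (adjusted p 0.192 and 0.934), so the direction for RC6G0034900 turned on that library, and with the date block it was -0.0102.

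Of the 10 most counted genes, 3 were called for the average auxin effect. RC5G0381200, the fifth, had 9686, 5207 and 4718 CPM in S10_Aux and 4092, 3709 and 2200.4 CPM in S100_Aux, against 1430.4, 1783 and 2315 CPM in S100_NoAux and 2668, 3382 and 2657 CPM in S10_NoAux. Its S10_Aux libraries were all above the other groups, and its S100_NoAux libraries overlapped with S100_Aux by 1 library. The average auxin effect was 1.01 (SE 0.242, adjusted p 0.0117), and the average sucrose effect was -0.81 (SE 0.242, adjusted p 0.0481). The auxin call ended without the 4 June libraries (adjusted p 0.0956) or the 4 August libraries (0.109). The sucrose call sat at the threshold: it ended without any one of S100_Aux_2, S100_Aux_3 or the S100_NoAux and S10_NoAux libraries (adjusted p 0.0567 to 0.119), and without the libraries of any 1 date (0.110 to 0.307).

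RC3G0255800, the eighth, ran the other way, with 2147, 916 and 2006 CPM in S10_Aux and 2417, 1881 and 3648 CPM in S100_Aux, against 5270.5, 4570.2 and 4114 CPM in S100_NoAux and 3906, 3182 and 4412 CPM in S10_NoAux. Apart from S100_Aux_3, every auxin library lay below every library without auxin. Averaged over doses, the auxin effect was -0.997 (SE 0.244, adjusted p 0.0129). RC5G0649500, the tenth, had 1271, 869 and 1819.5 CPM in S10_Aux and 1978, 1809 and 3596 CPM in S100_Aux, against 4281, 4047 and 3298 CPM in S100_NoAux and 3216, 2719 and 3765 CPM in S10_NoAux, again with S100_Aux_3 as the 1 auxin library inside the range of the others. The corresponding effect was -0.97 (SE 0.234, adjusted p 0.0120). Both calls ended without the June libraries (adjusted p 0.0778 and 0.113) and without the August libraries (0.103 and 0.136). Without S10_Aux_1 the auxin effects of RC5G0381200, RC3G0255800 and RC5G0649500 were 0.83, -1.10 and -0.95 (adjusted p 0.00824, 0.00688 and 0.0138).

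The other 2 genes of the 10 were not called for auxin or sucrose on average. RC2G0337100, the sixth, had 6883, 2718 and 4021 CPM in S10_Aux and 4480.4, 2221 and 2905 CPM in S100_Aux, against 3455, 2267 and 2425 CPM in S100_NoAux and 4605, 3641 and 3220.2 CPM in S10_NoAux. RC4G0357400, the seventh, had 4892, 2059 and 2539 CPM in S10_Aux and 3859.7, 3988 and 3565 CPM in S100_Aux, against 4561, 3770.2 and 3204 CPM in S100_NoAux and 3272, 2884 and 3510.0 CPM in S10_NoAux. Each was highest in S10_Aux_1, as were 8 of the 10. RC4G0357400 was called for sucrose once S10_Aux_1 was left out, at 0.49 (adjusted p 0.0348).

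**Figure D2:**
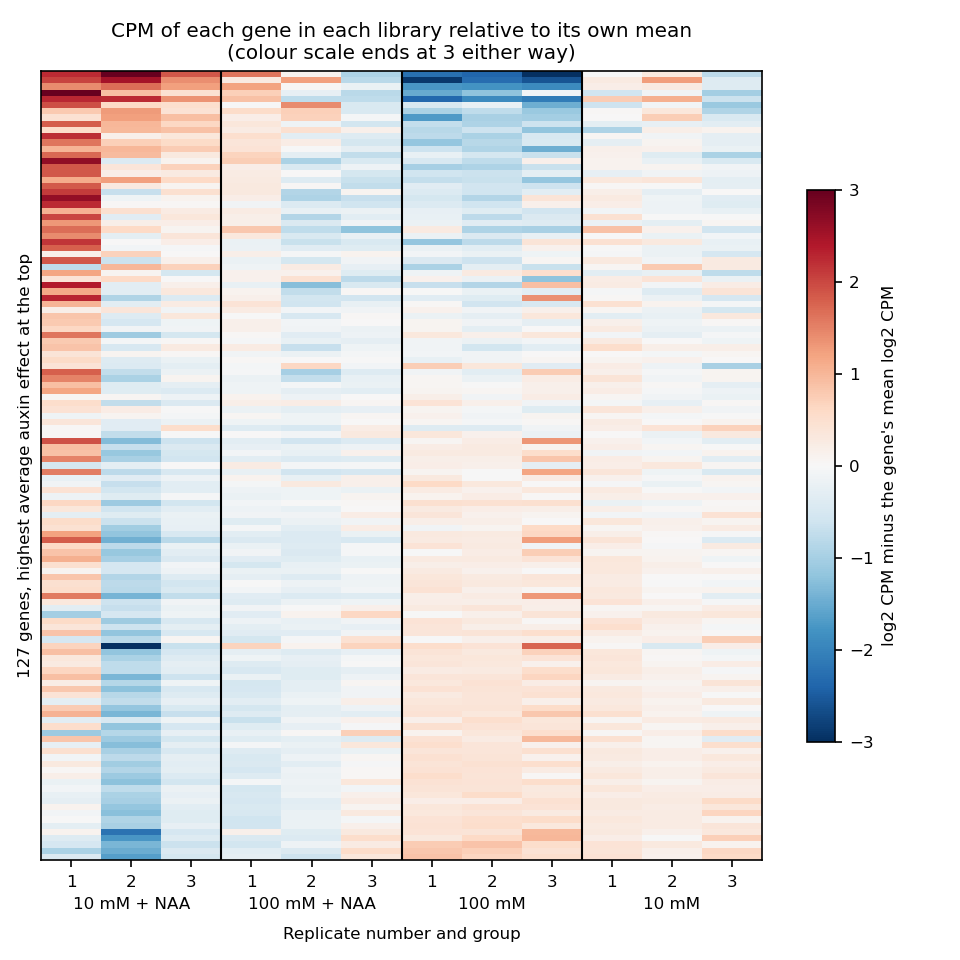
Log2 CPM of each of the 127 genes in each of the 12 libraries, less the gene's own mean, with genes ordered by average auxin effect and libraries by group and replicate number. Replicate 1 of 10 mM + NAA, the highest library for 71 genes, shows as a red column through most of the list, beside replicate 2, the lowest for 73.

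Averaged over both sucrose doses, auxin went with higher levels of 17 of the 127 genes (13.4%) and lower levels of another 17 (13.4%). Over all tested genes the same test called 12.2% higher and 12.5% lower in this fit. With the harvest date as a block 17 of the 127 were higher and 25 lower, beside 16.5% and 17.5% of all tested genes, and without TMM scaling 18 were higher and 27 lower, beside 9.63% and 10.2%. The median auxin effect was -0.22 on the log2 scale over the 127 genes and 0.02 over all tested genes. The 17 raised genes changed by 0.57 to 2.93 (median 1.10), and 14 of them were higher with auxin in 6 of 6 same-date, same-dose pairs. The 17 lowered genes changed by -0.997 to -0.38 (median -0.63), and 14 of them were lower in 6 of 6 pairs. The pairs use the libraries that gave the calls, so both counts of pairs are a description and no separate check.

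How far a gene had to respond to auxin to enter the list differs between the directions. Of the 17 raised genes, 12 had a mean without auxin at or below 700 CPM, so their levels with auxin brought them in. Of the 17 lowered genes, 6 had a mean with auxin at or below 700 CPM. S10_Aux had the highest group mean and S100_NoAux the lowest for all 17 raised genes. For the 17 lowered genes S10_Aux was the lowest in every case, and S100_NoAux the highest in 15. That an auxin group and a group without auxin stood at opposite ends follows largely from the auxin calls, made on the same libraries. Over the 127 genes, S10_Aux was the highest group for 52 and the lowest for 41. Its mean here includes S10_Aux_1. In 7 of the 127 genes all 6 auxin libraries lay below all 6 without auxin, and in 0 they all lay above. Among all tested genes 2.42% were without overlap on the lower side and 1.53% on the higher side. The 7 genes were all among the 17 lowered, which were called on the same libraries. The difference from all tested genes was not tested.

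The largest auxin effect belonged to RC5G0605600, with 2777, 5858 and 2115 CPM in S10_Aux and 1773, 631 and 309 CPM in S100_Aux, against 124, 112 and 70.4 CPM in S100_NoAux and 577, 718 and 339 CPM in S10_NoAux. Within each dose every auxin library was above every library without auxin, while S100_Aux_3 lay below all of S10_NoAux. Its average auxin effect was 2.93 (SE 0.429, adjusted p 0.00207) and its average sucrose effect -2.20 (SE 0.417, adjusted p 0.00668). The sucrose call ended without the August libraries (adjusted p 0.169).

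RC5G0303500 had 2135, 2956 and 1370.2 CPM in S10_Aux and 630.1, 1226 and 298 CPM in S100_Aux, against 70.4, 107 and 87.3 CPM in S100_NoAux and 630.0, 1248 and 398 CPM in S10_NoAux. Its S100_NoAux libraries were all below every other library, and at each date the order of the 4 groups put S10_Aux on top. The average auxin effect was 2.26 (SE 0.371, adjusted p 0.00274), and the average sucrose effect was -2.34 (SE 0.372, adjusted p 0.00281). RC6G0261400 had 1498, 1782 and 1321 CPM in S10_Aux and 1300.2, 578 and 490.4 CPM in S100_Aux, against 168, 161 and 150.1 CPM in S100_NoAux and 643, 673 and 429 CPM in S10_NoAux, with S10_Aux above and S100_NoAux below every other library. For auxin its average effect was 1.85 (SE 0.238, adjusted p 0.00155). For sucrose it was -1.41 (SE 0.235, adjusted p 0.00344), a call that ended without the August libraries (adjusted p 0.134). Without S10_Aux_1 the auxin effects of RC5G0605600, RC5G0303500 and RC6G0261400 were 3.02, 2.28 and 1.87 and their sucrose effects -2.28, -2.34 and -1.42, all called (adjusted p at most 0.00727).

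The size of the effect on RC6G0231900 rested in part on 1 library, with 7027, 1164 and 867 CPM in S10_Aux and 1025, 529 and 361 CPM in S100_Aux, against 218, 273 and 593 CPM in S100_NoAux and 417, 586 and 311 CPM in S10_NoAux. S10_Aux_1 was far above every other library, and S10_Aux_3 overlapped with S100_Aux. The group mean of this gene exceeded 700 CPM in S10_Aux alone, so its levels there brought it into the list. The average auxin effect was 1.80 (SE 0.510, adjusted p 0.0240), and 1.03 without S10_Aux_1 (adjusted p 0.0320). The call ended without S100_Aux_1, S100_NoAux_1, S100_NoAux_2, S10_NoAux_1 or S10_NoAux_3 (adjusted p 0.0533 to 0.0600). It also ended without the June (0.201) or the August libraries (0.106).

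Besides RC3G0255800 and RC5G0649500, the lowered genes were led by RC4G0494600 and RC2G0626800. RC4G0494600 had 717, 388 and 645 CPM in S10_Aux and 688, 915 and 1206 CPM in S100_Aux, against 1711, 1823 and 1464 CPM in S100_NoAux and 1348, 1245 and 1089 CPM in S10_NoAux. Only S100_Aux_3 overlapped with the libraries without auxin. Its average auxin effect was -0.95 (SE 0.189, adjusted p 0.00525), and the call ended without the August libraries (adjusted p 0.0992). RC2G0626800 had 513, 199 and 511 CPM in S10_Aux and 497, 507 and 970.5 CPM in S100_Aux, against 823, 1014 and 1339.6 CPM in S100_NoAux and 768, 665 and 1097 CPM in S10_NoAux, where S100_Aux_3 again overlapped. On average auxin changed it by -0.87 (SE 0.272, adjusted p 0.0362), a call that ended without any one of S100_Aux_1, S100_Aux_2, S100_NoAux_2, S100_NoAux_3, S10_NoAux_1 or S10_NoAux_3 (adjusted p 0.0586 to 0.0888), or without the libraries of any 1 date (0.0597 to 0.174). Without S10_Aux_1 the effects of RC4G0494600 and RC2G0626800 were -1.03 and -0.96 (adjusted p 0.00296 and 0.0263).

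**Figure D3:**
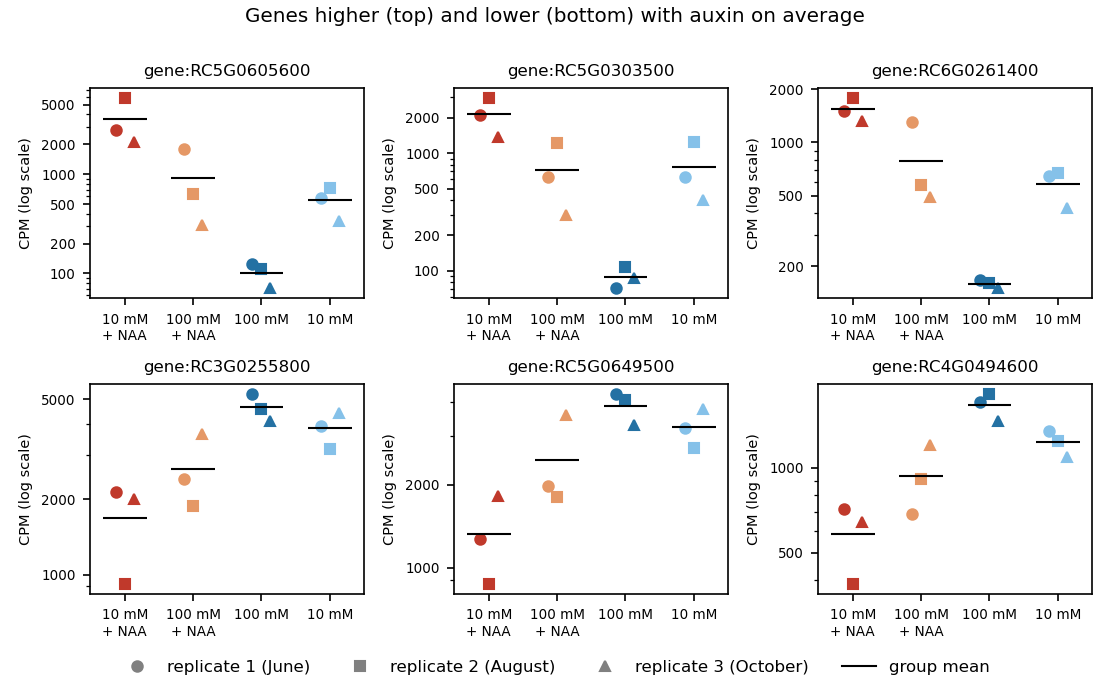
CPM on log axes of 3 genes that were higher and 3 that were lower with auxin on average, with a marker for each library and a line for each group mean. The raised genes are highest in 10 mM + NAA and lowest in 100 mM, and the lowered genes show the reverse order of those groups.

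The count of lowered genes depended on S10_Aux_1. Without that library, 18 genes were called higher with auxin and 60 lower, so 47.2% of the 127 were lowered, where 13.4% of all tested genes were called higher and 14.1% lower. All 17 genes called lower with 12 libraries remained, and 16 of the 17 raised; the raised gene that was lost was RC3G0259200, which is named for its harvest-date test below. The median over the 127 genes became -0.39, against 0.02 over all tested genes.

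The 43 newly lowered genes had effects of -1.11 to -0.35 (median -0.68) without S10_Aux_1, and of -0.71 to 0.10 with it (adjusted p 0.0509 to 0.999). In all 43, S10_Aux_2 and S10_Aux_3 lay below the S10_NoAux library of the same date. In 35 of the 43, S10_Aux_1 lay above S10_NoAux_1. Both patterns follow largely from the choice of the 43, which were called lower only when S10_Aux_1 was left out. Leaving out other single libraries gave 18 to 37 called genes in all: 18 without S100_Aux_1, 19 without S100_NoAux_2 or S10_NoAux_3, and 22 without S100_Aux_2, S100_NoAux_3 or S10_NoAux_1, against 34 with all 12. In those 6 settings 16.2% to 18% of all tested genes were called, against 24.7%. Without both S10_Aux_1 and S10_Aux_2, 10 genes were called higher and 38 lower, beside 5.60% and 5.63% of all tested genes; S10_Aux is then 1 library, which is assumed to vary like the other groups. Without the June, August or October libraries 23, 4 and 18 of the 127 were called, beside 9.57%, 2.64% and 19.9% of all tested genes.

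**Figure D4:**
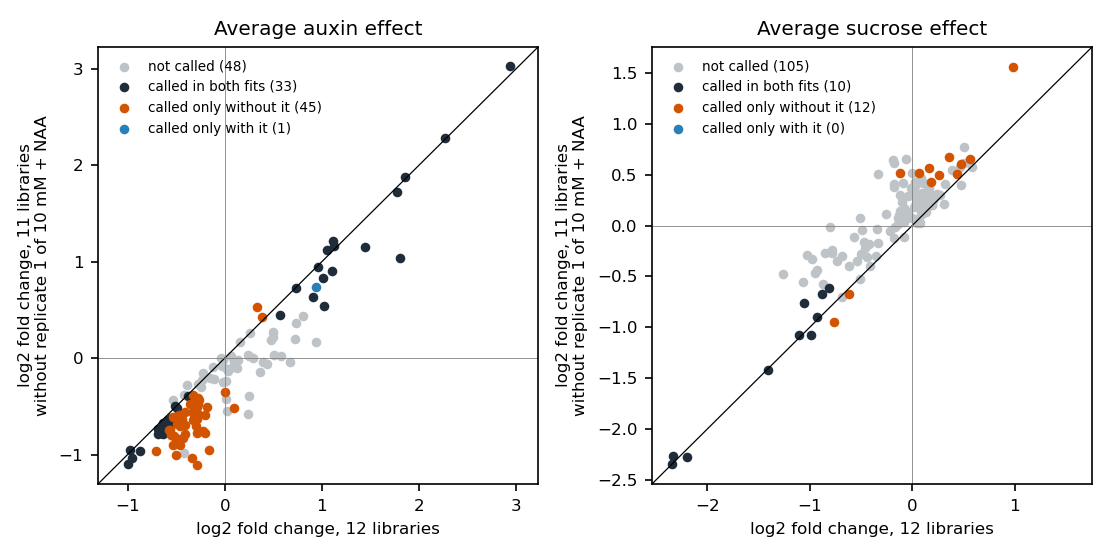
Average auxin effect (left) and average sucrose effect (right) of the 127 genes as log2 fold changes, from 11 libraries without replicate 1 of 10 mM + NAA against all 12, coloured by the fit in which each gene was called. In the left panel 43 genes called lower only without that library lie under the diagonal, and in the right panel points shift upwards.

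Taken at 10 mM sucrose alone, auxin raised 10 of the 127 genes and lowered 5, beside 6.74% higher and 7.72% lower among all tested genes. With the harvest date as a block the counts were 17 higher and 13 lower, beside 12.5% and 13.5% of all tested genes. Without S10_Aux_1 they were 5 higher and 43 lower, beside 6.39% and 7.49%. Without TMM scaling they were 7 higher and 17 lower, beside 3.35% and 7.80%, so which direction was more frequent depended on the scaling and on that library. The median of the 127 genes was -0.03 with 12 libraries and -0.48 without S10_Aux_1, against 0.03 and 0.02 over all tested genes. The total of 15, beside 14.5% of all tested genes, moved with the library left out, as did the share over all tested genes. It fell to 0 without S10_NoAux_1 or S10_NoAux_3 (2.10% and 1.87% of all tested genes), 3 without S10_Aux_2 (2.44%) and 5 without S10_NoAux_2 (8.25%). It was 6 or 7 without 1 S100_NoAux library (9.37% to 11.1%), 10 without S100_Aux_2 (12.2%) and 30 without S10_Aux_3 (19.8%). Without the June or August libraries 0 of the 127 and 0% of all tested genes were called, and without the October libraries 4 and 8.70%.

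The largest calls at 10 mM were RC6G0231900, raised by 2.78 (SE 0.748, adjusted p 0.0315), and RC5G0649500, at -1.29 (SE 0.333, adjusted p 0.0276). RC6G0231900 entered the list only through its S10_Aux levels, so its rank here follows in part from the choice of genes. The first was not called without S10_Aux_1 (1.23, adjusted p 0.0978) or without any one S10_NoAux library (0.0589 to 0.116). The second was not called without S10_Aux_2, S10_NoAux_1 or S10_NoAux_3 (adjusted p 0.0741 to 0.0947). Each also lost its call without the June (0.142 and 0.128) or the August libraries (0.174 and 0.208), and the first without the October libraries (0.0533). Date by date, 36 of the 127 genes were lower with auxin in June, 92 in August and 83 in October, where 50.7%, 50.5% and 47.5% of all tested genes were lower. The June pair holds S10_Aux_1.

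At 100 mM sucrose, auxin raised 3 of the 127 genes (RC5G0605600, RC5G0303500 and RC6G0261400) and lowered 0 by edgeR's test, beside 0.845% raised and 0.288% lowered, or 1.13% in all, among tested genes. Unadjusted p was under 0.05 for 15 genes on the lower side, and DESeq2 called 3 lower. With the date block 8 were raised and 0 lowered, beside 4.68% and 3.35% of all tested genes, and without S10_Aux_1 6 were raised and 2 lowered, beside 1.56% and 0.853%. All 3 calls ended without any one S100_NoAux library (adjusted p 0.0855 to 0.159) and without the June or August libraries (0.251 to 0.321), and that of RC5G0303500 also without S100_Aux_1 or S100_Aux_2 (0.0999 and 0.0733). RC5G0605600 was the largest, at 3.15 (SE 0.613, adjusted p 0.0369). That call also ended without S100_Aux_1, S100_Aux_2 or S10_NoAux_1 (adjusted p 0.0619 to 0.129).

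Although few genes were called, the median of the 127 at 100 mM was -0.27, against 0.00 over all tested genes, and it was -0.26 against 0.02 without S10_Aux_1, a library that is in neither group. By date, 77, 95 and 86 of the 127 genes were lower with auxin in June, August and October, where 49.6%, 49.6% and 49.9% of all tested genes were lower. Without TMM scaling both medians moved up, to -0.17 for the 127 genes and 0.11 for all tested genes.

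Higher sucrose, averaged over the presence of auxin, went with lower levels of 10 of the 127 genes (7.87%) and higher levels of 0 by edgeR's test. Among all tested genes 6.91% were lower and 4.92% higher. For the higher side, unadjusted p was under 0.05 for 6 genes and DESeq2 called 3. With the date block 20 genes were lower and 1 higher, beside 11% and 9.42% of all tested genes, and without TMM scaling 10 were lower and 3 higher, beside 4.06% and 5.56%. All 10 were lower at 100 mM in 6 of 6 same-date pairs, with average effects of -2.34 to -0.81. The pairs use the libraries that gave the calls, so they are no separate check. Of the 10, 7 had a mean at 100 mM at or below 700 CPM, so their levels at 10 mM brought them into the list.

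The sucrose and auxin averages are computed from the same 12 libraries, so their values are set side by side only. RC4G0267800 had 968, 310.4 and 312 CPM in S100_Aux and 103, 141 and 123 CPM in S100_NoAux, against 2522, 2490.2 and 1345 CPM in S10_Aux and 904, 1106 and 340.4 CPM in S10_NoAux. Every S100_NoAux library lay below every other library, and S10_Aux was on top. Its average sucrose effect was -2.34 (SE 0.364, adjusted p 0.00249) and its average auxin effect 1.77 (SE 0.357, adjusted p 0.00555). The sucrose call ended without the August libraries (adjusted p 0.0927), and the auxin call without the June (0.0561) or August libraries (0.0526). Without S10_Aux_1 the effects were -2.26 and 1.72 (adjusted p 0.00393 and 0.00699). Also among the largest sucrose effects were those of RC5G0303500, RC5G0605600 and RC6G0261400, given above at -2.34, -2.20 and -1.41. They stood beside auxin effects of 2.26, 2.93 and 1.85.

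Without S10_Aux_1, 12 of the 127 genes were lower and 10 higher (7.87%) with more sucrose, where 7.39% of all tested genes were lower and 6.16% higher. The 10 genes called lower with all libraries were among the 12. The 10 higher genes had effects of 0.43 to 1.56, the largest in RC6G0331000, whose S10_Aux_2 value was far below its other libraries. The median over the 127 genes was -0.07 with 12 libraries and 0.16 without S10_Aux_1, and 0.08 without TMM scaling, so it has no stable sign. The corresponding medians over all tested genes were 0.00, 0.02 and 0.09.

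Without auxin, 100 mM sucrose lowered 3 of the 127 genes (RC5G0303500, RC4G0267800 and RC6G0261400) and raised 0, beside 1.26% lower and 0.717% higher, or 1.98% in all, among tested genes. On the higher side 0 genes had an unadjusted p under 0.05, and DESeq2 called 0. With the date block 8 were lowered, beside 3.46% of all tested genes, and without S10_Aux_1 5, beside 1.56%. The calls of RC4G0267800 and RC6G0261400 ended without S10_NoAux_1, S10_NoAux_2 or any one S100_NoAux library (adjusted p 0.0652 to 0.113), and without the libraries of any 1 date (0.0533 to 0.371). The largest effect was that of RC5G0303500, at -3.10 (SE 0.544, adjusted p 0.0161). Its call ended without S10_NoAux_2 or any one S100_NoAux library (adjusted p 0.0742 to 0.0832), and without the June (0.192) or August libraries (0.190). The median over the 127 genes was 0.06, against 0.01 over all tested genes.

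With auxin, 100 mM sucrose lowered 3 of the 127 genes (RC2G0584300, RC3G0311800 and RC4G0267800) and raised 0 by edgeR's test, beside 2.12% lower and 2.02% higher, or 4.14% in all, among tested genes. On the higher side 7 genes had an unadjusted p under 0.05 and DESeq2 called 2. With the date block 12 were lowered and 2 raised, beside 7.69% and 6.97% of all tested genes, and without TMM scaling 2 were lowered and 1 raised, beside 0.812% and 3.49%. Without S10_Aux_1, 0 were lowered and 2 raised, beside 1.92% each, so none of the 3 calls remained. The calls of RC2G0584300 and RC3G0311800 ended without any one library other than S100_Aux_1 or S10_Aux_3 (adjusted p 0.0516 to 0.196), and without the libraries of any 1 date (0.0666 to 0.430). Among them RC4G0267800 had the largest effect, at -1.999 (SE 0.508, adjusted p 0.0491). Its call ended without any one library other than S100_Aux_1, S10_Aux_3 or S10_NoAux_3 (adjusted p 0.0590 to 0.194), and without the libraries of any 1 date (0.0642 to 0.418).

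By date, 111 of the 127 genes were lower at 100 mM than at 10 mM with auxin in June, 45 in August and 50 in October, where 48.6%, 48.0% and 51.5% of all tested genes were lower. Most genes were thus lower at the date that holds S10_Aux_1 and higher at the other dates. The median over the 127 genes was -0.25 with 12 libraries, 0.23 without S10_Aux_1 and 0.04 without TMM scaling, against -0.01, 0.02 and 0.18 over all tested genes.

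The interaction, the auxin effect at 100 mM less that at 10 mM, called 0 of the 127 genes and 0% of all tested genes. In the main fit with 12 libraries none had an unadjusted p under 0.05 by edgeR's test, and the smallest adjusted p among them was 0.963. By the same test, 5 had an unadjusted p under 0.05 with the date block and 23 without S10_Aux_2, with 0 called in either. DESeq2 called 0 as well, with 8 at an unadjusted p under 0.05. The auxin effects at the 2 doses are therefore not shown to differ for any of these genes. Over the 127 genes the median interaction was -0.22 with 12 libraries and 0.21 without S10_Aux_1, against 0.02 and 0.04 over all tested genes. The sign of that median thus turned on 1 library.

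S10_Aux_1 did not raise all of the 127 genes alike. In 32 of them it was at least 3 times the mean of the other S10_Aux libraries, as it was for 4.20% of all tested genes. The ratio had a median of 1.95 over the 127 genes and 0.959 over all tested genes, and was below 1 for 17 of the 127. With 12 libraries 2 of the 32 were called for the average auxin effect, both higher, beside 12.2% of all tested genes. Without S10_Aux_1, 2 were called higher and 15 lower, beside 13.4% and 14.1% of all tested genes. In that fit 60 of all 127 genes were called lower. The set was drawn on S10_Aux_1 over the mean of S10_Aux_2 and S10_Aux_3, so low values in those libraries favoured entry. The lower calls rest on the same libraries and are no separate result. Of the 32, 8 were among the 13 genes that would leave the list without that library.

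The same genes tended to stand high in S100_NoAux_3, a library of another treatment and date. In 31 of the 32 the S100_NoAux_3 level exceeded the mean of the other S100_NoAux libraries, with a median ratio of 1.43 (0.884 to 3.28). In the remaining 95 genes it did so in 42, with a median ratio of 0.955, and over all tested genes the median was 1.00. Across the 127 genes, which are not independent replicates, the 2 log2 ratios had a Pearson correlation of 0.61 and a Spearman correlation of 0.550, against a Spearman correlation of 0.0224 over 23950 tested genes. Each ratio rests on 1 library, and the set of 32 was drawn after the values were seen.

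S10_Aux_1 and S100_NoAux_3 were also the 2 libraries with the fewest gene counts, 7369267 and 8229391, and with the largest shares of reads in the summary entries that name no gene, 22.2% and 23.2% against 17.3% to 20.6% elsewhere. The part of these values in the pattern was not tested.

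**Figure D5:**
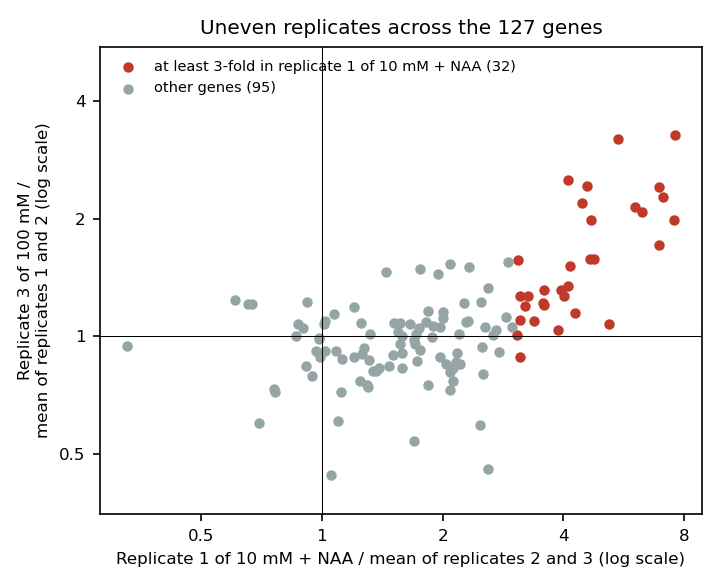
For each of the 127 genes, the CPM of replicate 1 of 10 mM + NAA over the mean of the other 2 libraries of its group, against the CPM of replicate 3 of 100 mM over the mean of the other 2 libraries of its group, both on log axes. The 32 genes at least 3-fold up on the horizontal axis lie above 1 on the vertical axis in 31 cases.

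Genes differed widely in how steady they were. The highest library exceeded the lowest by a median of 3.33-fold, and 2.66-fold without S10_Aux_1. The range stayed under 2-fold in 15 genes, or 29 without S10_Aux_1, and exceeded 5-fold in 40, or 17 without it. The steadiest gene was RC1G0021500, with 685, 797 and 727 CPM in S10_Aux and 791, 695 and 785 CPM in S100_Aux, against 829, 699.6 and 803 CPM in S100_NoAux and 779.7, 727 and 747 CPM in S10_NoAux. Its libraries spanned 1.21-fold with a coefficient of variation of 6.39%, so that no group stood apart. RC1G0478400 and RC2G0252900 followed, at 1628 and 809.9 CPM on average and with ranges of 1.35-fold and 1.47-fold.

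The widest ranges were those of RC5G0605600 (83.2-fold), RC6G0331000 (49.7-fold) and RC5G0303500 (42.0-fold). RC6G0331000 had 884, 37.1 and 348 CPM in S10_Aux and 883, 594 and 884 CPM in S100_Aux, against 791, 733 and 1843 CPM in S100_NoAux and 563, 403 and 634 CPM in S10_NoAux. S10_Aux_2 alone was far below the rest and S100_NoAux_3 far above, and the gene was not called for the average auxin effect (-0.42, adjusted p 0.583). Its average sucrose effect was 0.99 (SE 0.525, adjusted p 0.249), and 1.56 without S10_Aux_1 (adjusted p 0.0492).

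Harvest date was tested as a term beside the 4 groups, and 6 of the 127 genes (4.72%) were called, where 5.91% of all tested genes were. Without S10_Aux_1 the counts were 16 genes and 7.72%. RC5G0296300 had the smallest adjusted p, 0.00298, with date means of 1295 CPM in June, 602 in August and 432 in October. Its values were 2067, 985 and 683 CPM in S10_Aux and 1141, 379 and 281 CPM in S100_Aux, against 778, 340.3 and 331 CPM in S100_NoAux and 1194, 704 and 432 CPM in S10_NoAux, so June was the highest date in each group. The call ended without all June libraries (adjusted p 0.122) or all October libraries (0.0915).

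RC3G0259200 was likewise highest in June, with date means of 3662, 2268 and 1595 CPM (adjusted p 0.0288). RC5G0303500 was highest in August, at 866, 1385 and 538 CPM (adjusted p 0.0340). These date calls were lost without most single libraries: without S100_Aux_1, S100_Aux_2, S100_Aux_3, S10_Aux_3 or any S10_NoAux library for both (adjusted p 0.0543 to 0.117), without S10_Aux_2 for RC5G0303500 (0.0505), and without some dates (0.0726 to 0.298). For auxin, RC3G0259200 had an average effect of 0.94 (SE 0.305, adjusted p 0.0414). That call ended without any one of 9 libraries, those of S100_NoAux, S100_Aux_1, S100_Aux_2, S10_Aux_1, S10_Aux_2, S10_NoAux_2 and S10_NoAux_3 (adjusted p 0.0542 to 0.104), and without any 1 date (0.0551 to 0.212).

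Some of the 127 genes have neighbouring numbers, and such pairs may be near-identical copies among which the authors' counting could have split reads. RC0G0182700 and RC0G0182800, next to each other in the files, had mean levels of 846 and 739 CPM. Their average auxin effects were 0.51 and 0.91 (adjusted p 0.296 and 0.0163) and their average sucrose effects -0.95 and -1.06 (adjusted p 0.0952 and 0.0142). Without S10_Aux_1 both would leave the list, at 678 and 615 CPM, and the auxin effect of RC0G0182700 was 0.04. The sucrose effect of RC0G0182700 was called by DESeq2 (adjusted p 0.0376). By edgeR's test it was called with the date block (0.0207) and without S10_Aux_2 (0.0311). The calls of RC0G0182800 ended without the August libraries (adjusted p 0.0666 and 0.125) or the October libraries (0.0618 and 0.0725), and its auxin call without the June libraries (0.0604).

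The other 3 pairs lie 2 entries apart. RC1G0201000 and RC1G0201200 differed in S10_Aux_1, where RC1G0201000 had 6581 CPM, its highest value, and RC1G0201200 had 853 CPM, the lowest of its S10_Aux libraries. RC1G0520200 and RC1G0520400 had 955 and 941 CPM on average. Their auxin effects of -0.55 and -0.29 were not called in the main fit with 12 libraries. Both were called without S10_Aux_1 (-0.79 and -0.70, adjusted p 0.00190 and 0.00365). With 12 libraries RC1G0520200 was called by DESeq2 (adjusted p 0.0496). By edgeR's test it was also called without TMM scaling (0.0190) and with the date block (0.0446). RC2G0626600 and RC2G0626800 had auxin effects of -0.45 and -0.87, of which only that of RC2G0626800 was called. Without S10_Aux_1 both were, at -0.59 and -0.96 (adjusted p 0.00768 and 0.0263).

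With 12 libraries 35 of the 127 genes (27.6%) were called in at least 1 of the auxin, sucrose or interaction comparisons and 92 in none, where 29.0% of all tested genes were called. Without S10_Aux_1 the counts were 81 (63.8%) and 46, where 31.7% of all tested genes were called.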

How the data were processed

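Per the labels' protocols, polyadenylated RNA (1 µg a library) was made into 12 stranded libraries. The authors deposited raw whole-number counts per gene, in 3 columns (strand ignored, forward, reverse) per the file headers. The submitters' processing notes name TopHat2 and Bowtie2; for versions, genome build and annotation, nothing is given in the sources used here. The 4 summary entries that name no gene took 17.3% to 23.2% of a library's reads (multimapping reads alone 3.15% to 5.44%) and entered neither library sizes nor tests. Reads of near-identical gene copies may be among them.

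The reverse column was used, since forward counts made up 3.37% to 5.00% of stranded gene counts. With edgeR 4.0.16 in R 4.3.3, low counts were removed by filterByExpr (minimum count 10, minimum total 15), library sizes were scaled by TMM, and edgeR's quasi-likelihood test was run on a model of 4 group means over all 12 libraries. A gene was called where its p, adjusted after Benjamini and Hochberg over all tested genes, was under 0.05. Each SE is the absolute log2 fold change divided by the square root of its F value; effects per date used log2 CPM with a prior count of 2. The steps were tested on simulated counts in which some genes were changed in S10_Aux only. That simulation held no library that stood apart and no effect of date, so it does not check the calls against either.

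The labels give libraries of 1 number the same harvest date, so the number pairs libraries. The labelled planting date is also shared within the August and within the October libraries, but in June it differs between all groups. Deviations from the group means correlated in same-number pairs (mean r 0.298, 0.0647 to 0.592, 18 pairs). In other pairs the mean r was -0.149 (36 pairs). Deviations within a group cancel, so the second mean is largely set by the first and is no separate check.

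The genes and lists were chosen with earlier results of these data known. Genes are named by rule: the 10 highest means, up to 4 called genes per direction for each average effect, the largest call per direction in each simple comparison, the 3 widest and 3 narrowest ranges, the 3 nearest the threshold on either side, the 3 smallest p-values for date, neighbouring numbers, and the largest forward share. Other genes named in counts of 3, the level classes and the 3-fold limit were chosen after the values were seen. Alternatives were DESeq2 1.42.0, its size factors, no TMM factor, no filter, unstranded counts, the date block, thresholds of 500 and 1000 CPM, a list chosen on 11 libraries, and each library or date left out. Leaving out S10_Aux_1 together with the block or with another library was added after seeing the data.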

Additional observations from a re-analysis of the deposited data

Results flagged for a closer look

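RC3G0027700 stood out in the forward-strand counts, which no comparison uses. On average 12.9% of its stranded counts lay on the forward strand, and between 6.18% and 20.3% in single libraries. The next of the 127 genes had 1.07% and the median was 0.0937%, while all genes together reached 3.37% to 5.00% in a library. The gene averaged 1928 ± 499.8 CPM in S10_Aux and 1276 ± 344 CPM in S100_Aux, against 449 ± 114 CPM in S100_NoAux and 1174 ± 505 CPM in S10_NoAux (SD, n = 3 each). Its average auxin effect was 1.11 (edgeR adjusted p 0.00779), a call that ended without the June libraries (0.0517). Its average sucrose effect was -0.99 (adjusted p 0.0216), a call that ended without S100_Aux_3, S100_NoAux_1 or S10_NoAux_2 (0.0524 to 0.0620), or without the libraries of any 1 date (0.0787 to 0.152). Whether a gene on the opposite strand shares these reads was not tested.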

How the results depend on the processing

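Among the effects of named genes that the text gives, 1034 values kept their direction and side of the threshold under an alternative, 227 lost the call, 49 gained it and 9 changed direction. All 9 were effects not called with 12 libraries. The auxin effect of RC6G0034900, 0.24 with all libraries, was -0.0102 with the replicate block, -0.54 without S10_Aux_1 and with the block, and -0.18, -0.47 and -0.70 without S10_Aux_1 together with S100_NoAux_3, S10_Aux_2 or S10_Aux_3. Leaving out 1 library or 1 date gave -0.79 to 0.85 for it and -0.0039 to 0.88 for RC4G0282100. The auxin effect of RC0G0182700 was -0.14 without S10_Aux_1 and S10_Aux_3.

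The counts of called genes, in the order auxin at 10 mM, auxin at 100 mM, sucrose without auxin and sucrose with auxin, were 15, 3, 3 and 3 as reported (14.5%, 1.13%, 1.98% and 4.14% of all tested genes). They became 36, 11, 7 and 14 with DESeq2 (20%, 5.42%, 4.01% and 10.3%), and 24, 6, 3 and 3 without TMM (11.1%, 1.51%, 1.61% and 4.30%). They became 14, 5, 5 and 5 without the filter (8.54%, 1.23%, 1.58% and 3.21%). With the replicate block they became 30, 8, 8 and 14 (26%, 8.03%, 5.14% and 14.7%), and the average sucrose count 21 (20.4%) against 10 (11.8%). DESeq2 gave 21 for average sucrose (15.9%) and 26 for date (11.3%), against 6 (5.91%).

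Genes above 500 CPM (231 genes) gave 33, 6, 4 and 8, with 74 for average auxin against 34 and 21 for average sucrose. Genes above 1000 CPM (66 genes) gave 7, 1, 0 and 1, with 17, 4 and 2 for average auxin, average sucrose and date. Only the length of the list changed, from 127 genes. The shares over all tested genes stayed at 14.5%, 1.13%, 1.98% and 4.14% in the 4 comparisons. They stayed at 24.7%, 11.8% and 5.91% for average auxin, average sucrose and date. Shares of counts in S100_Aux, S100_NoAux and S10_NoAux were 21.7%, 23.7% and 23.3% above 500 CPM and 11.4%, 12.2% and 12.0% above 1000 CPM, and 16.4% in S10_NoAux for the list chosen on 11 libraries.

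Without S10_Aux_1 and with the block the 4 counts were 73, 43, 15 and 26 (27.7%, 14.8%, 7.67% and 16.5%), with 88 for average auxin (38.1%) and 48 for average sucrose (24.7%). Without S10_Aux_1 and S100_NoAux_3 they were 43, 0, 0 and 0 (12.4%, 0%, 0.906% and 2.10%), with 72, 19 and 31 for average auxin, average sucrose and date (22.4%, 9.89% and 16.8%). Without S10_Aux_1 and S10_Aux_2 they were 0, 29, 8 and 0 (0%, 5.5%, 2.95% and 0%). Without S10_Aux_1 and S10_Aux_3 they were 66, 28, 8 and 33 (19.9%, 5.43%, 2.91% and 10.9%), with 82 and 48 for the averages (30.8% and 17.9%). In the last 2 settings S10_Aux is 1 library, assumed to vary like the other groups. S10_Aux_2, which is left in the last, was the lowest library for 73 of the 127 genes. The causes were not tested.

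Leaving out 1 library or 1 date gave 0 to 48, 0 to 8, 0 to 5 and 0 to 11 called genes in the 4 comparisons, 4 to 78 for average auxin, 1 to 22 for average sucrose, 0 to 16 for date and 0 to 0 for the interaction. The shares over all tested genes moved as well. They were 0% to 19.8%, 0% to 3.47%, 0% to 2.47% and 0% to 10.2% in the 4 comparisons. For average auxin they were 2.64% to 27.9%, for average sucrose 0.482% to 14.5% and for date 0% to 10.6%. The list held 116 to 134 genes, and its share was 14.2% to 21.1% in S10_Aux, 15.03% to 16.6% in S100_Aux, 16.4% to 18.04% in S100_NoAux and 16.1% to 17.6% in S10_NoAux. A group left with 2 libraries is assumed to vary like the others. Each gene had at least 565 counts in every library, so counting error is small beside the spread between libraries.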

Other observations

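The share of genes called differed between classes of level, and S10_Aux_1 changed their order. With classes of mean level chosen after the values were seen, the average auxin effect was called higher in 13.4% and lower in 13.4% of the 127 genes above 700 CPM. Among the 2006 genes between 100 and 700 CPM, 17.2% were higher and 20.1% lower. Among the 10369 genes between 10 and 100 CPM, 15.9% were higher and 16% lower, and among the 11765 genes up to 10 CPM, 8.02% and 8.07%. Without S10_Aux_1 the shares higher and lower were 14.2% and 47.2% above 700 CPM, 18.1% and 29.6% between 100 and 700 CPM, 18.2% and 17.7% between 10 and 100 CPM, and 8.94% and 8.53% up to 10 CPM. The classes were not tested against each other.

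The median SE of the auxin effect was 0.225 on the log2 scale above 700 CPM, 0.138 between 100 and 700 CPM, 0.135 between 10 and 100 CPM and 0.248 up to 10 CPM. Without S10_Aux_1 the medians were 0.156, 0.123, 0.127 and 0.243 in the same order. The median size of the auxin effect, regardless of sign, was 0.42 above 700 CPM, 0.33 between 100 and 700 CPM and 0.28 between 10 and 100 CPM.

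For the average sucrose effect, 7.87% of the 127 genes were lower and 0% higher. The shares lower and higher were 13% and 4.99% between 100 and 700 CPM, 10% and 6.05% between 10 and 100 CPM, and 3.15% and 3.97% up to 10 CPM. Without S10_Aux_1 they were 9.45% and 7.87% above 700 CPM, 14% and 8.87% between 100 and 700 CPM, 11.1% and 7.37% between 10 and 100 CPM, and 3.34% and 4.82% up to 10 CPM.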
